A study of Mus musculus with 6 samples.

Results

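Rpl13a encodes a protein of the large ribosomal subunit, and 4 of its introns each hold a box C/D small nucleolar RNA (snoRNA). These 5 genes, Snord32a, Snord33, Snord34, Snord35a and Rpl13a, were taken by symbol from count tables that list 23420 genes, and all 5 had reads in every library. Small RNA had been sequenced from NIH 3T3 cells, a mouse fibroblast line, transfected with the pEGFP-NXF3 plasmid. The groups were 3 NXF3 pulldown libraries, of RNA recovered with an Abcam anti-GFP antibody on protein A beads, and 3 input libraries made without antibody. The labels name 3 independent experiments, and all 6 libraries came from cells that carried the plasmid. NXF3 was therefore supplied from a plasmid in every sample, no pulldown from cells without it was used here, and each comparison sets the make-up of the recovered RNA beside that of the starting RNA. The series' title asks about snoRNA localisation and NXF3, which belongs to the NXF family of RNA export receptors.

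Box C/D snoRNAs are cut out of spliced introns, trimmed at both ends and bound by fibrillarin, Nop56, Nop58 and Snu13. The particle uses antisense stretches beside the D and D′ boxes to place 2′-O-methyl groups on ribosomal RNA. In human cells SNORD33 guides a site in 18S rRNA, SNORD34 and SNORD35A guide sites in 28S rRNA, and SNORD32A guides sites in both. SnoRNAs of this gene are also known from work on lipid-induced stress in cultured cells. There, some of them were found to be needed for the response and to accumulate in the cytoplasm. Each is made from an intron of a shared precursor, so the transcript count alone would give equal numbers, and trimming, protection and decay set their separate levels.

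All 4 snoRNAs lie on the minus strand of chromosome 7 within Rpl13a, in the order of transcription Snord32a, Snord33, Snord34 and Snord35a. In the GENCODE M21 models of build GRCm38, which is not the mm9 build named for the counts, Rpl13a spans chr7:45125558-45128761. In that build Snord32a is at chr7:45127382-45127464 in intron 2, and Snord33 is at chr7:45126864-45126947 in intron 4. Snord34 is at chr7:45126601-45126670 in intron 5, and Snord35a is at chr7:45126346-45126435 in intron 6. The snoRNAs end 107 bases (Snord32a), 69 bases (Snord33), 63 bases (Snord34) and 108 bases (Snord35a) before the next exon of the main transcript, Rpl13a-201. Their sequences, read by name from the GENCODE M21 transcripts, are shown 5′ to 3′ because they carry the class marks of the family. Capitals mark TGATG within the first 15 bases (core of box C) and CTGA within the last 15 bases (box D).
Snord32a: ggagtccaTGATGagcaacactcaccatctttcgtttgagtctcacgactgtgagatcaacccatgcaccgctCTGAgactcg
Snord33: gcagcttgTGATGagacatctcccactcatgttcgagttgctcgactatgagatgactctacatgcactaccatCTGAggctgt
Snord34: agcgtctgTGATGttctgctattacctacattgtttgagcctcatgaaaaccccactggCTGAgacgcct
Snord35a: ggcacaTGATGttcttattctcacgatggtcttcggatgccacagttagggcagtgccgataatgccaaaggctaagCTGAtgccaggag

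All 4 carry both motifs on the transcribed strand, the strand searched, as do 77.8% of the 72 transcripts matched to Snord rows of the tables and 22.4% of all 1507 GENCODE snoRNA transcripts. In Snord35a the CTGA overlaps a further TGATG. The RNAs are 70 to 90 bases long, with 48.6% to 51.8% G and C. Over whole sequences, boxes included, Snord32a and Snord33 are the most similar of the 4 at 66.3% identity over 89 aligned columns. The longest run shared by any pair is 9 bases, between Snord34 and Snord35a. No other GENCODE gene holds an exact 30-base stretch of Snord32a, Snord34 or Snord35a on either strand.

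**Figure D1:**
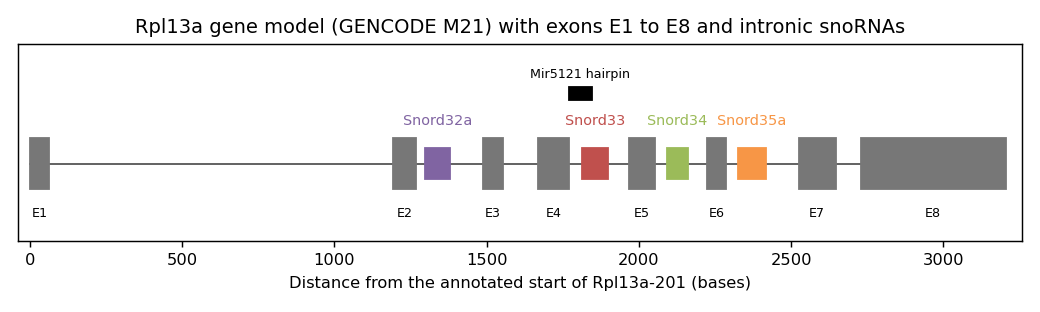
Gene model of Rpl13a drawn to scale from the start of Rpl13a-201, with exons 1 to 8 in grey and the 4 snoRNAs in colour; the x axis is distance in bases. The black bar is the Mir5121 hairpin, which covers the first 30 bases of Snord33.

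Snord33 differs from the other members in its annotation, and this touches every value given for it. The hairpin of the microRNA gene Mir5121 lies at chr7:45126918-45126991 on the same strand and covers positions 1 to 30 of Snord33. In the lines that follow, capitals mark the shared 30 bases.
Snord33: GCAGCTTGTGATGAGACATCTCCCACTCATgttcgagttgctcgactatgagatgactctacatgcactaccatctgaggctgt
Mir5121 hairpin: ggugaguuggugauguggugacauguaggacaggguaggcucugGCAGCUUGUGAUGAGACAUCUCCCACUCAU

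Among the 73 Snord rows with a RefSeq position in build GRCm38.p6, Snord33 was the only one that overlapped another small RNA gene with a row in the tables. Exons of 4 annotated Rpl13a transcripts also overlap Snord33 in GENCODE M21, against 0 for each of the other 3 snoRNAs. Mir5121 itself had 0 reads in all 6 libraries together. HTSeq-count in its default mode sets a read that touches several genes aside as ambiguous, so a read from the 5′ end of Snord33 would be counted for neither gene. Neither the counting mode nor the gene annotation is given in the sources used here. Under that mode the row named Snord33 could hold only reads confined to the last 54 bases. Those Rpl13a exons, if in the annotation used, would leave fewer still, and none with the 2 that contain the whole snoRNA. The row had reads in every library, so that mode and those 2 exons were not both in use. The level of the Snord33 row cannot be compared with the levels of the other 3 as the level of an RNA.

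The libraries held 769570, 6946284 and 3277335 gene counts in pulldowns 1 to 3, and 3828642, 1884117 and 3935088 in inputs 1 to 3. TMM scaling factors ran from 0.609 (pulldown 2) to 1.95 (pulldown 1), so those libraries stand apart in composition. All 9 fibroblast markers had reads, with a summed 254 to 340 CPM in the pulldown and 275 to 326 CPM in input. The 4 epithelial markers had none, and 1 each of the 4 leukocyte, 4 adipocyte and 3 endothelial markers had at most 1 read in a library. Transcripts of the bait gene, Nxf3, were at 802 to 1550 CPM in the pulldown and 452 to 1110 CPM in input.

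Snord32a had the highest CPM per kilobase of the members in every library. It had 9510, 41611 and 22863 reads in pulldowns 1 to 3, and 38281, 14695 and 59749 reads in inputs 1 to 3. After TMM scaling these were 6340, 9840 and 7560 CPM in the pulldown, against 13300, 7340 and 13300 CPM in input. Input 2 lay among the pulldown libraries, so the groups overlapped. Its mean was 7910 ± 1780 CPM in the pulldown and 11300 ± 3430 CPM in input (SD, n = 3 each).

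Snord34 was second in CPM per kilobase in all 6 libraries. Its level was 1180, 6590 and 2420 CPM in pulldowns 1 to 3, against 3770, 3690 and 3380 CPM in inputs 1 to 3. The inputs were close together, while pulldown 2 stood above all of them and pulldowns 1 and 3 below. Snord35a came next, with 760, 2320 and 1650 CPM in the pulldown, against 2630, 1470 and 3130 CPM in input. Here too the groups overlapped.

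Per kilobase of annotated length, means in the pulldown were 95400 ± 21400 CPM per kb for Snord32a, 48500 ± 40500 for Snord34 and 17500 ± 8720 for Snord35a. In input they were 136000 ± 41300, 51600 ± 2970 and 26800 ± 9420 CPM per kb in the same order (SD, n = 3 each). In the pulldown the SD of Snord34 spans the mean of Snord35a, although the order held within each library. Snord33 followed at 586 ± 420 CPM per kb in the pulldown and 98.7 ± 18.1 in input, subject to the overlap with Mir5121. The host was lowest, at 4.56 ± 2.18 CPM per kb in the pulldown and 2.19 ± 1.09 in input. Gel-cut products of 30 to 375 nucleotides leave mRNA visible only as fragments, so the host value does not measure intact mRNA.

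**Figure D2:**
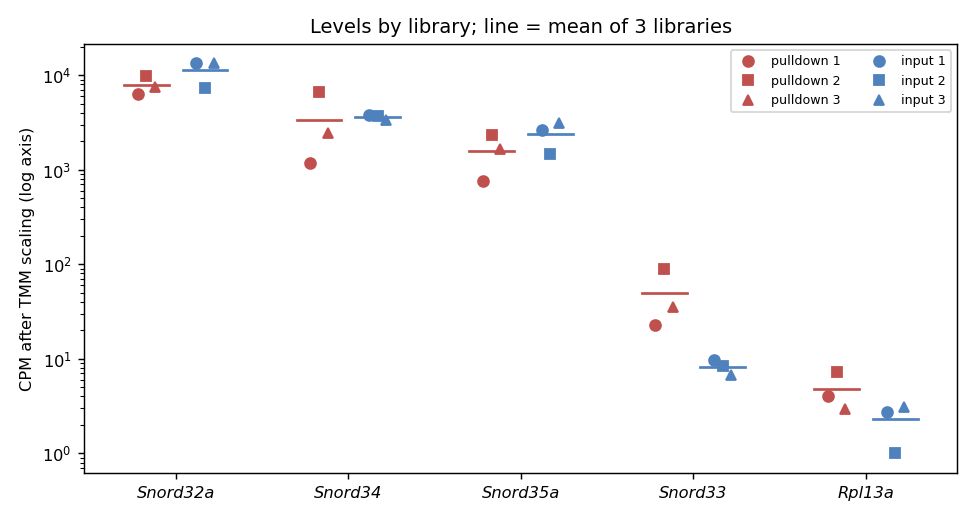
CPM after TMM scaling (log axis) of the 5 genes in each of 3 pulldown and 3 input libraries, with lines at group means. The groups overlap for Snord32a, Snord34, Snord35a and Rpl13a, while the 3 pulldown values of Snord33, 22.7 to 89.2, all lie above its input values, 6.68 to 9.7.

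The 4 snoRNAs together took a small share of each library. They held 1.62%, 1.15% and 1.08% of gene counts in pulldowns 1 to 3, against 1.48%, 1.33% and 2.26% in inputs 1 to 3. The mean was 1.28% ± 0.295 in the pulldown and 1.69% ± 0.50 in input (SD, n = 3 each). The groups thus differed by -0.411 percentage points, less than the SD in input (two-sided exact permutation test, p = 0.3; with 3 against 3 such a test cannot go below 0.1). It was -0.126 points without input 3, and -0.592 at the other end of the range with single libraries left out. Exact Clopper-Pearson 95% intervals of single libraries, which cover counting error only, were as wide as 1.59% to 1.65% in pulldown 1.

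The balance among Snord32a, Snord34 and Snord35a varied between libraries of the same group. Snord32a made up 76.4%, 52.2% and 64.8% of the reads of the 4 in pulldowns 1 to 3, and 67.4%, 58.7% and 67.1% in inputs 1 to 3. Snord34 made up 14.2%, 35.0% and 20.7% in the pulldown, and 19.2%, 29.5% and 17% in input. Libraries with a low share of Snord32a, pulldown 2 and input 2, were those with the high share of Snord34. Snord35a made up 9.16%, 12.3% and 14.2% in the pulldown and 13.3%, 11.8% and 15.8% in input.

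**Figure D3:**
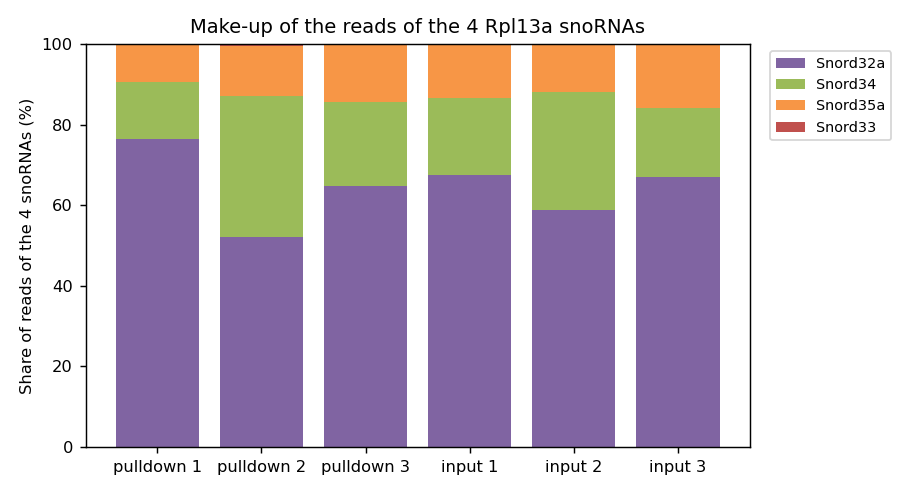
Stacked bars show the share of each snoRNA in the reads of the 4, in percent, for 3 pulldown and 3 input libraries. Snord32a ranges from 52.2% (pulldown 2) to 76.4% (pulldown 1), and Snord33, under 0.5% everywhere, is too thin to see.

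Ratios within a library do not depend on how libraries are scaled, and the 10 pairs of members were compared this way, with 0.5 added to each count. Among the 3 abundant snoRNAs no pair differed beyond the spread between libraries. The log2 ratio of Snord32a to Snord34 was 1.55 ± 0.93 in the pulldown and 1.59 ± 0.53 in input, which differ by -0.04 (p = 1 by exact permutation test, n = 3 each). That of Snord32a to Snord35a was 2.44 ± 0.53 in the pulldown and 2.25 ± 0.14 in input, a difference of 0.20 (exact permutation p = 0.9). That of Snord34 to Snord35a was 0.89 ± 0.53 in the pulldown and 0.65 ± 0.62 in input, a difference of 0.24 (exact permutation p = 0.5).

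The Snord33 row had more reads relative to its 3 abundant neighbours in every pulldown library than in any input library, though the exact test could not pass at this size. Snord33 had 34, 377 and 108 reads in pulldowns 1 to 3, and 28, 17 and 30 reads in inputs 1 to 3. Per 1000 reads of the other 3 snoRNAs this was 2.74, 4.76 and 3.07 in the pulldown, against 0.493, 0.679 and 0.337 in input. The lowest pulldown value was above the highest input value. The log2 ratio was -8.18 ± 0.41 in the pulldown and -10.98 ± 0.51 in input, a difference of 2.80, or 6.97-fold (p = 0.1 by exact permutation test, the smallest it can give with n = 3 each). Of all 1852 tested genes, 7.02% had every pulldown library above every input library on this scale. Leaving out single libraries gave differences of 2.54 to 3.05.

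The size of the shift was alike against each neighbour, as follows when the neighbours differ little among themselves. These comparisons share the Snord33 counts, so they are not independent of each other. The difference in log2 ratio was 2.81 against Snord32a, 2.77 against Snord34 and 3.01 against Snord35a, each with exact permutation p = 0.1 (adjusted over the 10 ratios, 0.167). Against reads of the host it was 1.29, with the groups overlapping (exact permutation p = 0.2, adjusted 0.286). Snord33 had 5.67, 12.2 and 12 reads per Rpl13a read in pulldowns 1 to 3, and 3.5, 8.5 and 2.14 in inputs 1 to 3.

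Across all genes, Snord33 was at 22.7, 89.2 and 35.7 CPM in pulldowns 1 to 3, against 9.7, 8.49 and 6.68 CPM in inputs 1 to 3. Its log2 fold of 2.60 (SE 0.49, 95% interval 1.55 to 3.64) was the highest of the 1852 genes tested and its p the fourth smallest, but it did not pass (adjusted p = 0.0581, edgeR quasi-likelihood test, Benjamini-Hochberg over 1852 genes). At an adjusted p under 0.05 this test called 0.054% of genes in either direction and 0% higher. The 42 genes higher at an unadjusted p under 0.05, Snord33 and Rpl13a among them, were 2.27% of those tested, where 5.62% lay under that p in either direction. DESeq2 called Snord33 higher (adjusted p = 0.00397, 0.054% of genes called higher), as did edgeR without pulldown 1 (log2 fold 2.94, adjusted p = 0.000547, 0.265% called higher). It was also called higher by edgeR with no filter on low counts (0.0582% called higher) and with the fit limited to means of 50 counts or more (0.472% called higher). With the replicate number as a block, edgeR called Snord33 higher too (log2 fold 2.35, adjusted p = 0.0451, 0.054% called higher). The labels do not say whether equal numbers mark the same experiment. Without pulldown 2, the highest, the log2 fold was 1.83 (adjusted p = 0.0796, edgeR). Of the 6 fits with a single library left out, only that without pulldown 1 passed. Snord33 also did not pass in edgeR with total-count scaling (2.46, adjusted p = 0.291) or DESeq2's size factors (2.61, adjusted p = 0.0596). Nor did it pass with limma-voom (2.19, adjusted p = 0.117).

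With libraries scaled to the summed reads of Snord32a, Snord34 and Snord35a, the log2 fold of Snord33 was 2.85 (95% interval 1.59 to 4.11, adjusted p = 0.00835, edgeR). That scaling raised the median of all tested genes by 0.46, so relative to it the change was 2.39. It called 0.162% of genes higher, 3 in number: Snord33, Mir31 and Acsl6, the last pair named after their values were seen. Within the Snord rows Snord33 was placed 54, 54 and 57 by CPM in pulldowns 1 to 3, and 60 in each input, among 74.

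How many reads of Snord33 were set aside is unknown, and the ambiguous line of the tables, which covers all genes, is far larger than the Snord33 row. It held 6558, 83312 and 35534 reads in pulldowns 1 to 3, and 31359, 20208 and 35580 reads in inputs 1 to 3. As a share of gene counts this was 0.852%, 1.20% and 1.08% in the pulldown, against 0.819%, 1.07% and 0.904% in input (p = 0.4 by exact permutation test, n = 3 each). With all of these reads added to Snord33, a choice made after seeing the data, it reached 0.531, 1.06 and 1.01 reads per read of the other 3 in the pulldown, against 0.553, 0.808 and 0.40 in input. The difference in log2 ratio with these sums was 0.56 (p = 0.3 by exact permutation test). The sums are upper limits on the level of Snord33 only if all its uncounted reads are on the ambiguous line. They are made up almost wholly of that line, which covers all genes, so they cannot decide how far the whole RNA shifted. The data hold no read positions, and whether the 3′ part of Snord33 or the whole RNA was higher in the pulldown was not tested.

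**Figure D4:**
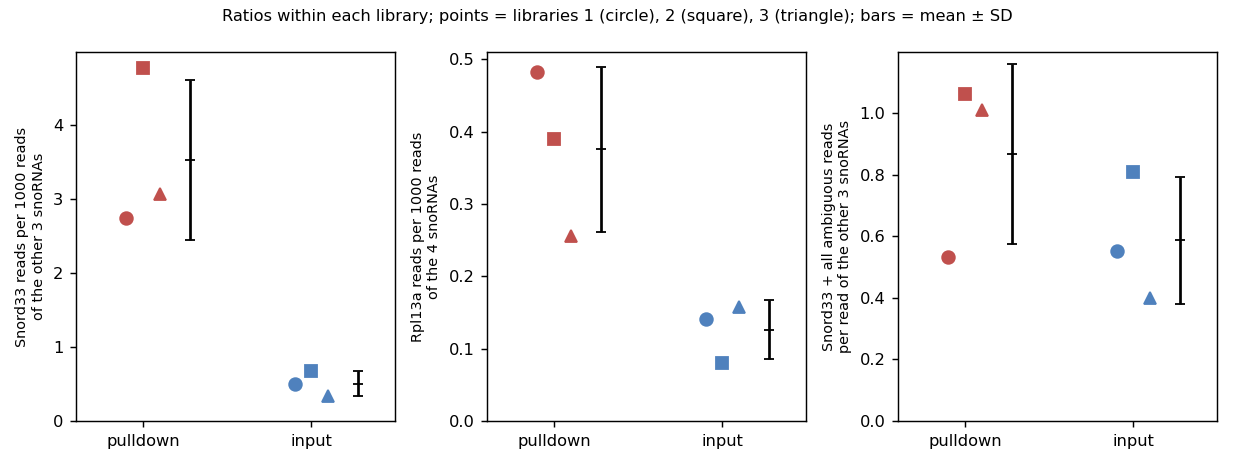
Within-library ratios for 3 pulldown (left of each panel) and 3 input libraries, with mean and SD; linear axes start at 0. Snord33 per 1000 reads of the other 3 snoRNAs (2.74 to 4.76 against 0.337 to 0.679) and Rpl13a per 1000 reads of the 4 (0.255 to 0.482 against 0.0798 to 0.157) do not overlap between groups, while Snord33 plus all ambiguous reads, a sum made up almost wholly of the ambiguous line, does.

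Snord32a, Snord34 and Snord35a did not pass the test across all genes in any direction. Their log2 folds were -0.51 (95% interval -1.77 to 0.74), -0.09 (-1.5 to 1.31) and -0.61 (-1.88 to 0.66), with adjusted p of 0.968, 0.997 and 0.968 (edgeR). These intervals leave room for more than a doubling or a halving of single members. Scaled to the other Rpl13a snoRNAs, the values were 0.16 for Snord32a and for Snord34, and -0.22 for Snord35a. These scalings raised the median of all tested genes by 0.59, 0.49 and 0.43, so relative to that median the members stood at -0.44, -0.33 and -0.65. The sign for Snord32a and Snord34 thus turned with the scaling but not relative to the median, and that for Snord34 also without pulldown 1 (0.33) or pulldown 3 (0.13). Leaving out pulldown 2, the highest library for Snord34, gave -1.02 (adjusted p = 0.988, edgeR).

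**Figure D5:**
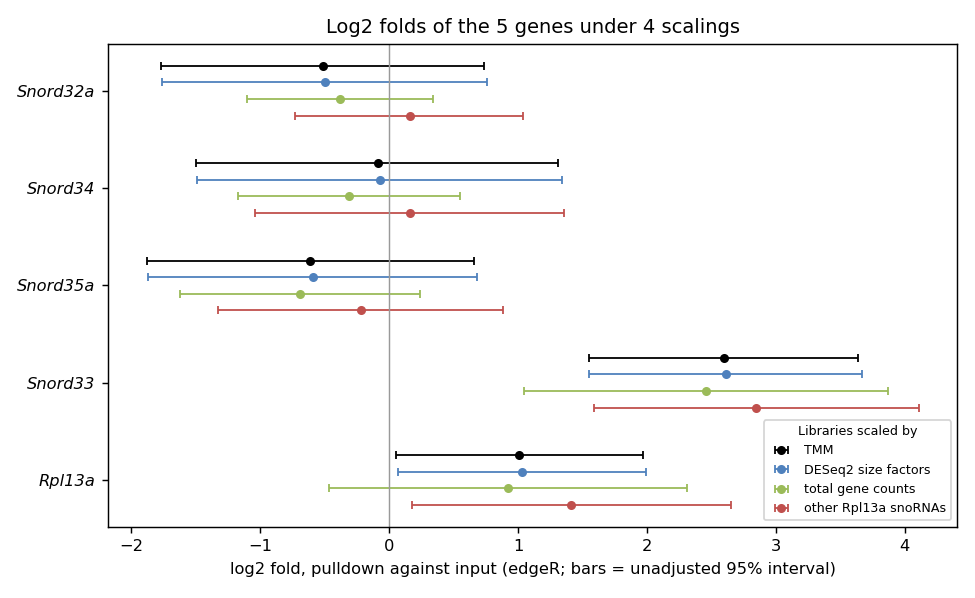
Log2 folds of the 5 genes (pulldown against input, edgeR) with unadjusted 95% intervals, for 4 ways of scaling the libraries. Intervals of Snord32a, Snord34 and Snord35a include 0 under each scaling, and those of Snord33, the lowest starting at 1.05, do not.

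Fragments of the host mRNA were few in both kinds of library. Rpl13a had 6, 31 and 9 reads in pulldowns 1 to 3, and 8, 2 and 14 reads in inputs 1 to 3, which is 4, 7.33 and 2.98 CPM in the pulldown against 2.77, 0.999 and 3.12 CPM in input. Pulldown 3 lay below input 3, so the CPM values overlapped. The log2 fold was 1.01 (SE 0.44, 95% interval 0.05 to 1.97, unadjusted p = 0.0407, adjusted p = 0.825, edgeR), and 0.41 without pulldown 2. Sequence shared with other genes limits this value. On either strand, 9 other GENCODE genes hold an exact 30-base stretch of Rpl13a-201, none of them with a row in the tables.

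Set against its own snoRNAs, the host was higher in each pulldown library than in each input library. It had 0.482, 0.389 and 0.255 reads per 1000 reads of the 4 snoRNAs in pulldowns 1 to 3, and 0.141, 0.0798 and 0.157 in inputs 1 to 3. The log2 ratio was -11.36 ± 0.48 in the pulldown and -12.86 ± 0.38 in input, a difference of 1.5, or 2.84-fold (p = 0.1 by exact permutation test, the smallest it can give with n = 3 each). On this scale 6.97% of the tested genes had every pulldown above every input. Counting error is wide here, with an exact 95% interval of 0.177 to 1.05 per 1000 in pulldown 1 and 0.00967 to 0.288 in input 2. Scaled to the 4 snoRNAs, the median of all tested genes was 0.45, and Rpl13a stood at 1.41 (adjusted p = 0.838, edgeR), or 0.96 above that median.

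Against single snoRNAs the difference in log2 ratio of Rpl13a was 1.52 for Snord32a, 1.47 for Snord34 and 1.72 for Snord35a, each with exact permutation p = 0.1 and 0.167 adjusted over the 10 ratios. All share the same Rpl13a counts, so they are not independent of each other. With the geometric mean of the 4 snoRNAs, which weights Snord33 as much as the others, the difference was 0.85 (exact permutation p = 0.2). Rows whose symbol starts with Rpl or Rps followed by a digit were also taken as a set. This choice by symbol alone does not limit the set to ribosomal proteins. Among the reads of this set, Rpl13a took 2.56%, 4.81% and 2.72% in the pulldown, against 1.80%, 0.66% and 2.07% in input. The other 8 tested genes of the set had a median log2 fold of -0.21, from -0.91 to 0.40, with 0 called.

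Snord35b, a near relative of Snord35a, is 73.9% identical to it, with a longest shared run of 17 bases. It had 27, 293 and 139 reads in pulldowns 1 to 3, and 177, 105 and 270 reads in inputs 1 to 3. Snord35a had 42.3, 33.5 and 36 reads per Snord35b read in the pulldown, and 42.8, 28.1 and 52 in input, with the groups overlapping. The log2 fold of Snord35b was -0.37 (SE 0.45, adjusted p = 0.968, edgeR).

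No other Snord row had a log2 fold as high as that of Snord33. Of 58 tested Snord rows besides the members, 0 were called in either direction and 0 were higher at an unadjusted p under 0.05 (edgeR). Their log2 folds had a median of 0.08 and ran from -1.08 to 1.11, against a median of 0 over all tested genes. None had every pulldown library above every input library by CPM, where 4.27% of all tested genes did, and 1 had every pulldown library below every input library, where 6.16% did. The list of 25 C/D snoRNAs from other ribosomal protein genes had 13 tested members, 8 with positive and 5 with negative log2 folds, a median of 0.08 and a highest value of 0.60, for Snord43.

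Genes that build, release or export snoRNAs were hardly sampled by these small RNA libraries, and none passed. Of the C/D particle proteins, Nop56 and Nop58, its paired scaffold proteins, had log2 folds of -0.25 (SE 0.46) and -0.15 (SE 0.38). Xrn2, a nuclear 5′ exonuclease that trims intronic snoRNAs, was the 1 of 10 assembly and processing genes with enough reads, at 0.44 (SE 0.32). Of 10 export genes 3 were tested. Nxf1, the main mRNA export receptor, was at -0.65 (SE 0.26, unadjusted p = 0.0269, edgeR). Xpo1, an exportin, was at -0.36 (SE 0.32), and Nxf3 at 0.53 (SE 0.55). Adjusted p was 0.825 or above for each of these (edgeR).

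Profiles over the 6 libraries, taken as log2 CPM minus its mean, placed no member among the 3 nearest genes of another. The measure was the root mean square distance in log2 units. Nearest to Snord33 were Mir130a (0.56), Scarna17 (0.82) and Nr1d1 (0.83), and among the members Rpl13a (0.89). Nearest to Snord34 were the snoRNAs Snora52 (0.21), Snord38a (0.22) and Snord65 (0.25). Snord32a lay closest to Zzef1 (0.15), Timp2 (0.16) and Tmpo (0.18), and Snord35a to Larp4b (0.21), Yars (0.21) and Actr2 (0.23). Over the 6 libraries these neighbours had 72 to 239 and 70 to 94 reads, against 186709 for Snord32a and 40540 for Snord35a. Counting error in the neighbours was not separated from these distances. Rpl13a lay closest to Dnajb4 (0.24), Smarcc1 (0.29) and Rabep1 (0.29). Snord32a and Snord35a were 0.33 apart, with 93 genes nearer to Snord32a than Snord35a was, and 9 nearer to Snord35a than Snord32a was.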

How the data were processed

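The authors deposited unnormalised counts of reads by gene symbol, 1 table per library. The submitters' processing notes name Bowtie, Partek and mouse build mm9, and the file names and the 5 summary lines show removal of rRNA reads and counting with HTSeq-count. Neither versions nor strand setting nor annotation is given in the sources used here. Libraries were amplified with 14 PCR cycles, per the labels' protocols. Summary lines entered neither library sizes nor tests; the ambiguous line held 0.197% to 0.427% of all reads in a table.

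From the counts, edgeR 4.0.16 in R 4.3.3 was fitted over all genes and all 6 libraries: TMM, filterByExpr (minimum count 10, which left 1852 genes, all 5 members among them), quasi-likelihood F test, Benjamini-Hochberg adjustment, threshold 0.05. SE and intervals come from the F statistic. The fit was run on simulated counts to check calls and log2 folds, and the SE and intervals were not checked there. Alternatives used DESeq2 1.42.0 and limma 3.58.1. Ratios within libraries were compared with exact permutation tests (scipy 1.17.1). CPM are counts scaled by TMM library size; lengths, positions and sequences are from GENCODE M21 (GRCm38), and the Mir5121 hairpin from RefSeq (GRCm38.p6). All members matched.

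Named genes were the members, symbols sharing their stems, the 3 nearest profiles per member and up to 4 genes per list. Members and lists were chosen with earlier results of these data known. No 2 libraries were identical, and all differed by more than sampling noise. A count of 0 allows up to 3 counts.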

Additional observations from a re-analysis of the deposited data

How the results depend on the processing

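Snord33 passed the threshold with DESeq2 (2.60), with no filter (2.65), at a mean of at least 50 counts (2.54, where Rpl13a is not tested), with the replicate block (2.35, adjusted p = 0.0451, edgeR) and scaled to the other Rpl13a snoRNAs (2.85). It did not pass with DESeq2's size factors in edgeR (2.61), total counts (2.46) or limma-voom (2.19). Single libraries left out gave 1.83 to 2.94, passing without pulldown 1 but not in the other 5 fits (adjusted p 0.0708 to 0.421, edgeR). With all ambiguous reads added, chosen after seeing the data, it was 0.32 (adjusted p = 0.993, edgeR), where the sum is almost wholly the ambiguous line. Snord32a and Snord34 turned to 0.16 scaled to the other Rpl13a snoRNAs, and Snord34 ran from -1.02 to 0.33 with libraries left out. The range was -0.48 to 0.44 for the log2 ratio of Snord32a to Snord34, -0.11 to 0.38 for Snord32a to Snord35a and -0.06 to 0.58 for Snord34 to Snord35a. The cause was not tested. Of all genes, 0 were called higher and 1 lower; the count of higher genes was 1 with DESeq2, 7 with no filter, 1 at a mean of 50, 1 with the block, 3 scaled to the snoRNAs and 0 to 6 with libraries left out. The count of lower genes was 0 with total counts, 9 with no filter, 0 at a mean of 50, 3 with the block and 0 to 5 with libraries left out. Same-numbered libraries deviated together only weakly (correlations across genes 0.03, 0.065 and 0.14), though each library did so most with its own number. The labels do not say that equal numbers mark the same experiment, so the block was kept as an alternative. Whether the libraries are paired stays unsettled, and the call of Snord33 depends on it. Few Rpl13a reads (70 in all) limit every host value.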
